A study of Mus musculus with 12 samples.

Results

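Activity-induced synaptic effector genes are genes that neurons transcribe within minutes to hours of firing. Most of their products act at synapses or reach them by secretion, whereas Npas4 is a transcription factor and Gadd45b is linked to DNA demethylation. The set described here holds 8 members, chosen by name: Arc, Npas4, Homer1, Bdnf, Vgf, Nptx2, Scg2 and Gadd45b. Each is read by 1 probe set whose only gene symbol is that member, so all 8 were measured, out of 19938 genes with a symbol of their own on the array. The choice did not use the measured values, but it was made with earlier results of these data known.

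RNA was taken from the anterior striata, the forward part of a brain region central to reward and habit, of adolescent male mice of the Swiss CD-1 stock. There were 4 groups of 3 arrays: saline, ethanol, mephedrone, and mephedrone given with ethanol, called the combination below. Mephedrone is a stimulant of the cathinone class, a releaser of dopamine and serotonin. All groups went through a conditioned place preference procedure of 10 days, in which a compartment is paired with a drug, and drugs were given 15 minutes before the mouse entered the paired side. The labels give no dose and no interval between the last session and dissection, and do not say that each array holds a separate animal, so the p-values rest on the variation among these RNA samples, part or all of which may be technical.

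When a neuron fires, calcium entry through NMDA receptors and voltage-gated channels activates kinases that phosphorylate CREB and factors bound to the serum response element. Immediate early genes such as Arc and Npas4 are then transcribed from factors already present, while secreted effectors such as Bdnf and Nptx2 also follow as later targets. In the striatum these genes are known to respond to stimulant drugs through dopamine D1 receptors and glutamate inputs, and much striatal BDNF protein is carried in by axons from the cortex.

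The stretch of DNA just before the transcription start is where CREB binds, at the CRE, in several of these genes. The RefSeq table of mouse promoters (GRCm38.p6) matched 5 of the 8 members with 12 windows of 250 bases ending at a start site: 7 for Bdnf, 2 for Homer1 and 1 each for Npas4, Scg2 and Gadd45b. Arc, Vgf and Nptx2 were not matched. Each window was searched on both strands for the full CRE (TGACGTCA), the short CRE (TGACG), the serum response element by name, and TATAAA. A full CRE holds 2 overlapping short CREs. Over all 32851 windows of the table the full CRE was in 1.55%, the short CRE in 17.8%, the serum response element in 1.47% and TATAAA in 12.4%. Among the 12 windows, 1 held the full CRE, 4 held a short CRE, 1 held TATAAA (Gadd45b) and 0 held the serum response element. The 4 windows with a short CRE are shown because they carry the letters through which activity is known to reach this class of gene, with capitals marking those letters. They lie at chr1:79440027-79440276 (minus strand) for Scg2, chr19:4989972-4990221 (minus strand) for Npas4, chr13:93303507-93303756 (plus strand) for Homer1 and chr2:109692186-109692435 (plus strand) for Bdnf, where the window is 1 of 7.
Scg2: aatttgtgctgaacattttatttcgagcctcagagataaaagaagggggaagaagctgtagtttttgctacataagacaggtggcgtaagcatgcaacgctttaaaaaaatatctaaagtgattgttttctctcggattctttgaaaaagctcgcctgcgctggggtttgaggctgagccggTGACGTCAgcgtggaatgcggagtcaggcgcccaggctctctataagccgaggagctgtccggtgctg
Npas4: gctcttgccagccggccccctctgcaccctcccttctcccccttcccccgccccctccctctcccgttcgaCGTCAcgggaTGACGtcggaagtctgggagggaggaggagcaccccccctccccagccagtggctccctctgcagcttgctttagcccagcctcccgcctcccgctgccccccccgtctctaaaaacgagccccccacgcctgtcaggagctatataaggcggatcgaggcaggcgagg
Homer1: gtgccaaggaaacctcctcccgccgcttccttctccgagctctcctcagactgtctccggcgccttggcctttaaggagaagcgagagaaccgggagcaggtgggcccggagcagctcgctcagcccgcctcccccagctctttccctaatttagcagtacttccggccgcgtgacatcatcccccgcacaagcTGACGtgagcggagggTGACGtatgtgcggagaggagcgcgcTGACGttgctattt
Bdnf: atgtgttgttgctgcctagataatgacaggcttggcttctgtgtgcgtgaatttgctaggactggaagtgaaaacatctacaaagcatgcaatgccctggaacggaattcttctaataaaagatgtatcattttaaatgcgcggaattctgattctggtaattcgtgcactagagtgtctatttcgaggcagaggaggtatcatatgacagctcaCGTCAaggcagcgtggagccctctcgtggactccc
The Scg2 window holds the full palindrome, whose first base lies 68 bases before the start. The Npas4 window holds a short CRE on each strand, beginning 179 and 169 bases before the start, and the Homer1 window holds 3 on the plus strand, beginning 56, 40 and 14 bases before it. The match is one of letters and is no measurement of binding.

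Array values are on the log2 scale, each relative to the median of that probe set over the 12 arrays. A value of 0 is therefore the middle array, and levels cannot be set against each other between genes. The step of the stored numbers still shows a range for the level before centring: it lay between 8 and 16 on the log2 scale for Arc, Homer1, Vgf, Nptx2, Scg2 and Gadd45b, and reached below 8, between 4 and 8, for Npas4 and Bdnf. A dim probe set can show a smaller change than the RNA had. All 8 measured markers of striatal projection neurons, among them Drd1, Drd2, Ppp1r1b and Penk, lay between 8 and 16, as did 50.7% of all genes. So did 5 of 7 cortical and 2 of 10 choroid plexus markers (Ttr and Clic6). This gives a range of level only, and no level above background could be read.

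The arrays differed in markers of neighbouring tissue. The mean of the 7 measured markers of cortical excitatory neurons (of 8 listed) ran from -0.39 to 0.38 with saline, -0.50 to 0.25 with ethanol, -0.070 to 0.36 with mephedrone and -0.10 to 0.86 with the combination. That of all 10 choroid plexus markers ran from -0.13 to 1.16, -0.10 to 0.89, -0.19 to 0.69 and -0.036 to 1.96 in the same order. Combination replicate 3 was the highest array in both lists, and it was the lowest, at -0.34, for the 8 measured markers of striatal projection neurons (of 10 listed), with ethanol replicate 1 next at -0.18. Results are given below also without these 2 arrays. In tissue RNA, fewer cells of a type and less RNA per cell cannot be told apart.

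With all arrays weighted equally, no member passed the test in any comparison at an adjusted p of 0.05, and 3 exceptions in other settings, for Arc and Vgf, are given below. In limma's F test for any difference among the 4 groups, 0 of 8 members passed, against 0.00502% of all genes, and 4 of 8 (Vgf, Npas4, Arc and Homer1) had an unadjusted p under 0.05, against 8.35% of all genes. Their adjusted p-values were 0.267 for Vgf, 0.342 for Npas4, 0.356 for Arc and 0.588 for Homer1. For Bdnf, Nptx2, Scg2 and Gadd45b the unadjusted p lay between 0.427 and 0.985. In the main fit the set thus split into 4 genes with low unadjusted p-values and 4 without. Homer1 had the largest p of the first 4 in that F test, 0.0444. It was over 0.05 with a replicate block (0.0770), with marker covariates (0.107) and with bright probe sets (0.0510).

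**Figure D1:**
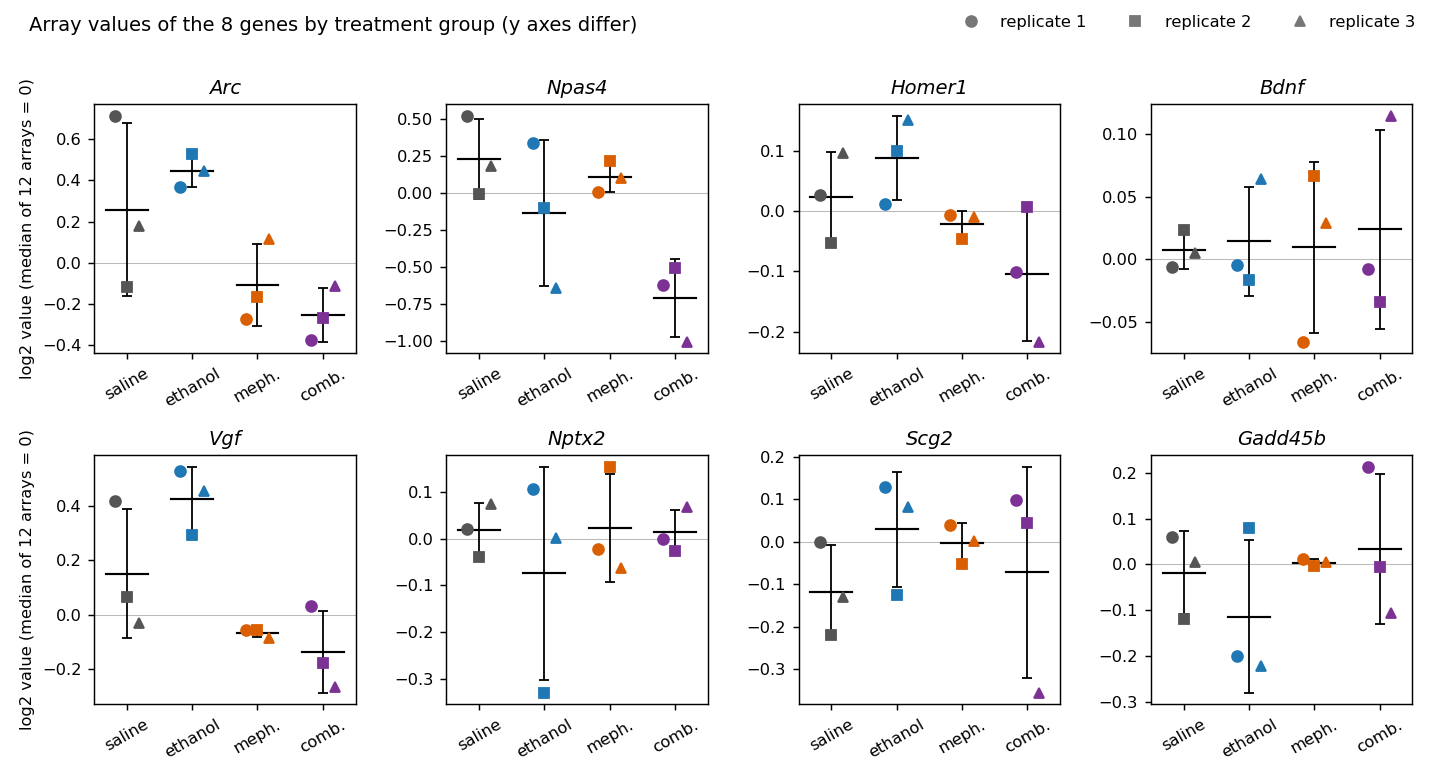
Log2 value of each gene on each of the 12 arrays, by treatment group (meph., mephedrone; comb., combination), relative to the gene's median. Symbols mark replicates 1 to 3, horizontal lines the group means and bars 1 SD, and the y axes differ between panels. All 3 ethanol arrays lie above all 3 mephedrone and all 3 combination arrays in Arc, Vgf and Homer1, and all 3 combination arrays lie below all saline and mephedrone arrays in Npas4.

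Arc encodes a capsid-like protein that moves into dendrites and promotes the removal of AMPA receptors from synapses. On the log2 scale its saline arrays, in the order of replicates 1 to 3 used throughout, read 0.71, -0.12 and 0.18, and its ethanol arrays 0.37, 0.53 and 0.45. The mephedrone arrays read -0.27, -0.17 and 0.11, and the combination arrays -0.38, -0.27 and -0.11. The ethanol arrays lay close together and high, the combination arrays were low, and the saline arrays spread widely, with replicate 1 the highest of all 12 arrays.

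Group means of Arc were 0.45 ± 0.079 (SD, n = 3) with ethanol, 0.26 ± 0.42 with saline, -0.11 ± 0.20 with mephedrone and -0.25 ± 0.13 with the combination. The main effect of mephedrone, which sets both groups given mephedrone against both groups not given it, 6 arrays against 6, was -0.53 (SE 0.12, 1.45-fold lower, 95% interval -0.80 to -0.27), with adjusted p = 0.101 in limma. Only 0.893% of genes had a smaller p. The 6 arrays of one side overlapped the 6 of the other through saline replicate 2, which lay below mephedrone replicate 3 and combination replicate 3. In none of the 8 members were the 6 arrays of each side apart (0 of 8, against 1.27% of all genes in either direction).

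In the separate comparisons Arc was lowest relative to ethanol. The difference between combination and ethanol was -0.70 (SE 0.17, 1.62-fold, adjusted p = 0.243), and that between mephedrone and ethanol was -0.56 (SE 0.17, adjusted p = 0.617), with no overlap of arrays in either. Against saline the differences were -0.51 (SE 0.17) for the combination, -0.37 (SE 0.17) for mephedrone and 0.19 (SE 0.17) for ethanol, all with overlap. Of neighbours in the order of group means, saline and mephedrone had the widest gap, with unadjusted p = 0.0529 and adjusted p = 0.689 (0.0414 and 0.552 after quantile normalisation). Mephedrone and the combination differed by -0.14 (SE 0.17), and this gap and that of ethanol and saline were near the standard error.

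Homer1 encodes a scaffold that ties group I metabotropic glutamate receptors to their partners, and its short activity-induced form, Homer1a, uncouples them. The annotation pairs the probe set with the gene alone, so the short form is not told apart from the long ones. The saline arrays read 0.027, -0.053 and 0.096, the ethanol arrays 0.012, 0.10 and 0.15, the mephedrone arrays -0.0070, -0.046 and -0.010, and the combination arrays -0.10, 0.0070 and -0.22. The ethanol arrays were again above all arrays of both mephedrone groups, though ethanol replicate 1 was barely above combination replicate 2.

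The mephedrone main effect on Homer1 was -0.12 (SE 0.042, 1.08-fold lower, 95% interval -0.21 to -0.026, adjusted p = 0.257). The combination lay 0.19 below ethanol in log2 (difference -0.19, SE 0.059, adjusted p = 0.337), and the 3 arrays of each did not overlap. The ethanol main effect, which sets both groups given ethanol against both without it, was -0.0092 (SE 0.042, 95% interval -0.10 to 0.082), and its sign changed when both arrays that stand apart were left out (0.038).

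Npas4 encodes a transcription factor of the bHLH-PAS family that is induced by calcium entry and shapes inhibitory synapses. The saline arrays read 0.52, -0.0087 and 0.18, the ethanol arrays 0.34, -0.099 and -0.65, the mephedrone arrays 0.0087, 0.22 and 0.10, and the combination arrays -0.62, -0.51 and -1.01. The combination arrays were the lowest of all groups apart from ethanol replicate 3, which lay among them. The ethanol arrays were spread from the level of saline to that of the combination.

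Group means of Npas4 were 0.23 ± 0.27 (SD, n = 3) with saline, 0.11 ± 0.10 with mephedrone, -0.14 ± 0.49 with ethanol and -0.71 ± 0.26 with the combination. The combination differed from saline by -0.95 (SE 0.22, 1.93-fold lower, 95% interval -1.42 to -0.47, adjusted p = 0.142) and from mephedrone by -0.82 (SE 0.22, 1.77-fold lower, adjusted p = 0.992). Against mephedrone only 0.0853% of genes had a smaller p, but 0 genes passed in that comparison in limma, and 660 (3.31%) had an unadjusted p under 0.05. Arrays did not overlap in either comparison, as in 4.5% of all genes lower against mephedrone.

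Npas4 was the 1 member whose ethanol main effect had an unadjusted p under 0.05, against 4.57% of all genes in either direction and 1.13% lower. Its value was -0.59 (SE 0.15, 95% interval -0.93 to -0.26, adjusted p = 0.941). Its mephedrone main effect was -0.35 (SE 0.15, adjusted p = 0.372). Between combination and ethanol the difference was -0.58 (SE 0.22, adjusted p = 0.425). Without ethanol replicate 1 and combination replicate 3 the ethanol main effect was -0.64 and the combination minus saline -0.80, whereas the combination minus ethanol was -0.19 and the mephedrone main effect -0.16. The interaction, that is the ethanol effect with mephedrone minus the ethanol effect without it, was -0.45 (SE 0.31, adjusted p = 1.00), but -0.069 (SE 0.23) without those 2 arrays and -0.15 (SE 0.26) with array weights. Ethanol minus saline was -0.37 (SE 0.22) in Npas4, and -0.60 (SE 0.16, unadjusted p = 0.00389, adjusted p = 0.672) without them.

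Vgf encodes a neurotrophin-induced precursor of secreted peptides. The saline arrays read 0.42, 0.064 and -0.031, the ethanol arrays 0.53, 0.30 and 0.46, the mephedrone arrays -0.055, -0.058 and -0.085, and the combination arrays 0.031, -0.18 and -0.27. The ethanol arrays were high and the mephedrone arrays lay within a narrow band below every saline array. Combination replicate 1 lay between the saline arrays and the other 2 lay below them.

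Group means of Vgf were 0.43 ± 0.12 (SD, n = 3) with ethanol, 0.15 ± 0.24 with saline, -0.066 ± 0.017 with mephedrone and -0.14 ± 0.15 with the combination. Vgf had the smallest p of the 8 members in the mephedrone main effect, at -0.39 (SE 0.076, 1.31-fold lower, 95% interval -0.56 to -0.22, adjusted p = 0.0751). It also had the smallest in the combination minus ethanol, at -0.56 (SE 0.11, 1.48-fold lower, adjusted p = 0.160). Mephedrone lay below ethanol by the difference of -0.49 (SE 0.11, adjusted p = 0.412), and the arrays did not overlap in either of these.

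Ethanol alone differed from saline in Vgf by 0.28 (SE 0.11, unadjusted p = 0.0264, adjusted p = 0.997), the 1 member with an unadjusted p under 0.05 there, against 4.98% of all genes. Which member that is depended on the setting: without ethanol replicate 1 and combination replicate 3 it was Npas4 and not Vgf (0.22, unadjusted p = 0.0739), after quantile normalisation again Npas4 (-0.46, unadjusted p = 0.0326) and not Vgf (unadjusted p = 0.0922), and with array weights both. The interaction for Vgf was -0.35 (SE 0.15, unadjusted p = 0.0439, adjusted p = 1.00). Without ethanol replicate 1 and combination replicate 3 it was -0.23 (limma unadjusted p = 0.178). Its unadjusted p was 0.0574 with array weights, 0.0935 with marker covariates and 0.150 after quantile normalisation. That p was over 0.05 in 9 of the 12 fits without 1 array and under it in 3. It stayed under 0.05 with each probe set alone, with a replicate block and with bright probe sets. Without saline replicate 1, the highest saline array, the combination minus ethanol kept its value and had adjusted p = 0.0360 in limma, and that was the 1 setting in which a member passed in a comparison of 2 groups. With array quality weights, which count arrays that fit the group means poorly for less, Vgf and Arc passed in the mephedrone main effect, at -0.35 (adjusted p = 0.0354) and -0.55 (adjusted p = 0.0363).

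Scg2 encodes secretogranin II, a granin of dense-core vesicles and the precursor of the peptide secretoneurin. The saline arrays read -0.0020, -0.22 and -0.13, the ethanol arrays 0.13, -0.12 and 0.081, the mephedrone arrays 0.040, -0.053 and 0.0020, and the combination arrays 0.097, 0.044 and -0.36. Combination replicate 3 was the lowest array and the other 2 combination arrays were among the highest. The combination minus saline was 0.046 (SE 0.11, limma unadjusted p = 0.680). Scg2 was higher in that comparison at an unadjusted p under 0.05 without combination replicate 3, and also without it and ethanol replicate 1. The mephedrone main effect was 0.0068 (SE 0.076, 95% interval -0.16 to 0.17, adjusted p = 0.986). Without ethanol replicate 1 and combination replicate 3 it was 0.10 (SE 0.051, unadjusted p = 0.0672, adjusted p = 0.331), and with array weights 0.059 (SE 0.059).

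Bdnf encodes the neurotrophin that acts on the TrkB receptor. It was the least variable member, and its SD over the 12 arrays of 0.049 exceeded that of only 22.9% of genes. Values ran from -0.0061 to 0.023 with saline, -0.016 to 0.064 with ethanol, -0.066 to 0.067 with mephedrone and -0.034 to 0.11 with the combination, so that all groups overlapped. The mephedrone main effect was 0.0061 (SE 0.034, 95% interval -0.068 to 0.080, adjusted p = 0.968), and the combination minus ethanol was 0.0098 (SE 0.048). The annotation pairs the probe set with the gene alone, so the activity-induced transcripts, which differ in their first exon, are not told apart, and it is 1 of the 2 dim probe sets.

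Nptx2 encodes a secreted pentraxin that gathers AMPA receptors at synapses. Values lay between -0.063 and 0.15 on 11 arrays, and ethanol replicate 2 was apart at -0.33. That array was also the lowest for cortical markers, at -0.50. The mephedrone main effect was 0.046 (SE 0.067, 95% interval -0.10 to 0.19, adjusted p = 0.846), and it was -0.018 without ethanol replicate 2.

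Gadd45b encodes a stress-induced protein linked to DNA demethylation in neurons after activity. The saline arrays read 0.061, -0.12 and 0.0043, the ethanol arrays -0.20, 0.079 and -0.22, the mephedrone arrays 0.012, -0.0043 and 0.0045, and the combination arrays 0.21, -0.0060 and -0.11. The mephedrone arrays were nearly equal and lay inside the range of each other group. The mephedrone main effect was 0.085 (SE 0.064, 95% interval -0.055 to 0.22, adjusted p = 0.662), opposite in sign to Arc, Vgf, Npas4 and Homer1.

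**Figure D2:**
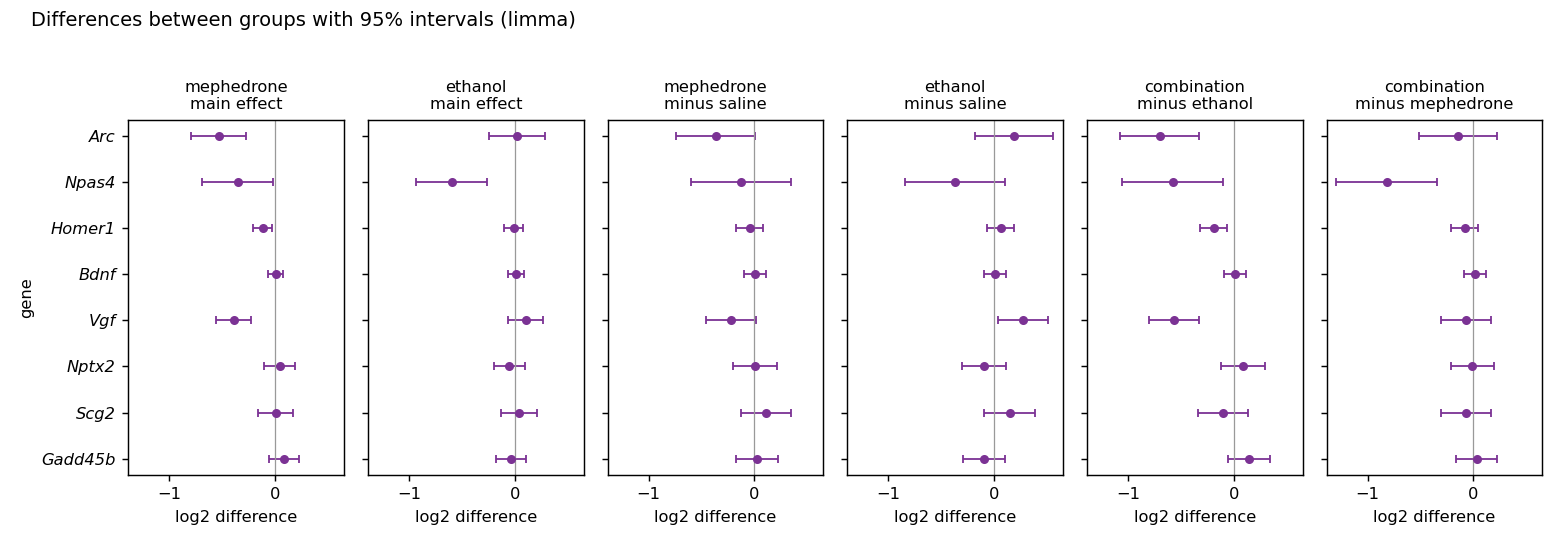
Log2 difference of each gene (x axis) with its 95% interval from limma, in 6 comparisons. Intervals of Arc, Npas4, Homer1 and Vgf lie below 0 in the mephedrone main effect and in the combination minus ethanol, that of Npas4 alone lies below 0 in the ethanol main effect and the combination minus mephedrone, and none of these values passed after adjustment over all genes.

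Over the 8 members the mephedrone main effect was negative in 4 and positive in 4, with a median of -0.056, against 46.8% of all genes below 0 and a median of 0.0038. None passed in limma, against 0.115% of all genes (23, of which 17 were higher and 6 lower, or 6 and 4 after quantile normalisation). At an unadjusted p under 0.05, 4 of 8 were lower, against 4.28% of all genes, and 0 were higher, against 8.36%. The 4 were Arc, Vgf, Homer1 and Npas4. Npas4 left that count, which fell to 3, without ethanol replicate 1 and combination replicate 3 (unadjusted p = 0.201), with array weights (0.211), with marker covariates (0.104) and in 7 of the 12 fits without 1 array, and Arc, Vgf and Homer1 were in it in all of these. Gadd45b was higher at an unadjusted p under 0.05 with marker covariates and in 1 of those 12 fits, that without ethanol replicate 2.

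In the combination minus ethanol 5 of 8 members were below 0, with a median of -0.15, against 50.4% of all genes and a median of -0.00067. None passed, against 0.0251% of all genes, and 4 of 8 were lower at an unadjusted p under 0.05, against 4.41%. Npas4 left that count without ethanol replicate 1 and combination replicate 3 (unadjusted p = 0.308) and with array weights (0.199). It also left with marker covariates (0.0588), with only the arrays compared (0.0538) and in 3 of the 12 fits without 1 array. Gadd45b was higher at an unadjusted p under 0.05 with array weights, with marker covariates and in 2 of those 12 fits. In 3 of 8 (Arc, Homer1 and Vgf) all combination arrays lay below all ethanol arrays, as in 6.78% of all genes. For mephedrone alone against ethanol the same 3 genes were apart in that direction, as in 6.7% of genes, and 2 of 8 (Arc and Vgf) were lower at an unadjusted p under 0.05, against 3.02%. These comparisons share the ethanol arrays, and are not independent of each other or of the mephedrone main effect.

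Against saline fewer members stood out. In the combination minus saline 0 of 8 passed in limma, against 0.01% of all genes, 3 of 8 (Npas4, Arc and Vgf) were lower at an unadjusted p under 0.05, against 3.26%, and 1 (Npas4) had no overlap, as did 5.77% in that direction. Vgf left that count without ethanol replicate 1 and combination replicate 3 (limma unadjusted p = 0.0754) and with array weights (0.0510). It also left with marker covariates (0.0549), with only the arrays compared (0.0603) and in 3 of the 12 fits without 1 array. Homer1 joined after quantile normalisation (0.0484) and in 3 of those 12 fits. Scg2 was higher at an unadjusted p under 0.05 without those 2 arrays and in 1 of those 12 fits. In mephedrone minus saline 0 of 8 had an unadjusted p under 0.05 in limma, against 7.23% of all genes, and Vgf was the 1 member without overlap, as were 4.74% of genes in that direction. Vgf was at -0.22 there (SE 0.11, unadjusted p = 0.0692, adjusted p = 0.730). That count of 0 depended on the setting. After quantile normalisation Arc (limma unadjusted p = 0.0414) and Vgf (0.04996) were lower, and with a replicate block Vgf was (0.0210). Arc was under 0.05 in 2 and Vgf in 1 of the 12 fits without 1 array. No member passed there after adjustment in any setting. In the interaction 5 of 8 were below 0, against 55.5% of all genes, and 0 passed in limma, with 1 (Vgf) at an unadjusted p under 0.05, against 3.54%. Vgf was not under 0.05 there in 9 of the 12 fits without 1 array, nor with array weights, quantile normalisation or marker covariates. Arc, Npas4 and Homer1 were each lower at an unadjusted p under 0.05 in 1 of those 12 fits. Gadd45b was higher at an unadjusted p under 0.05 with marker covariates.

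**Figure D3:**
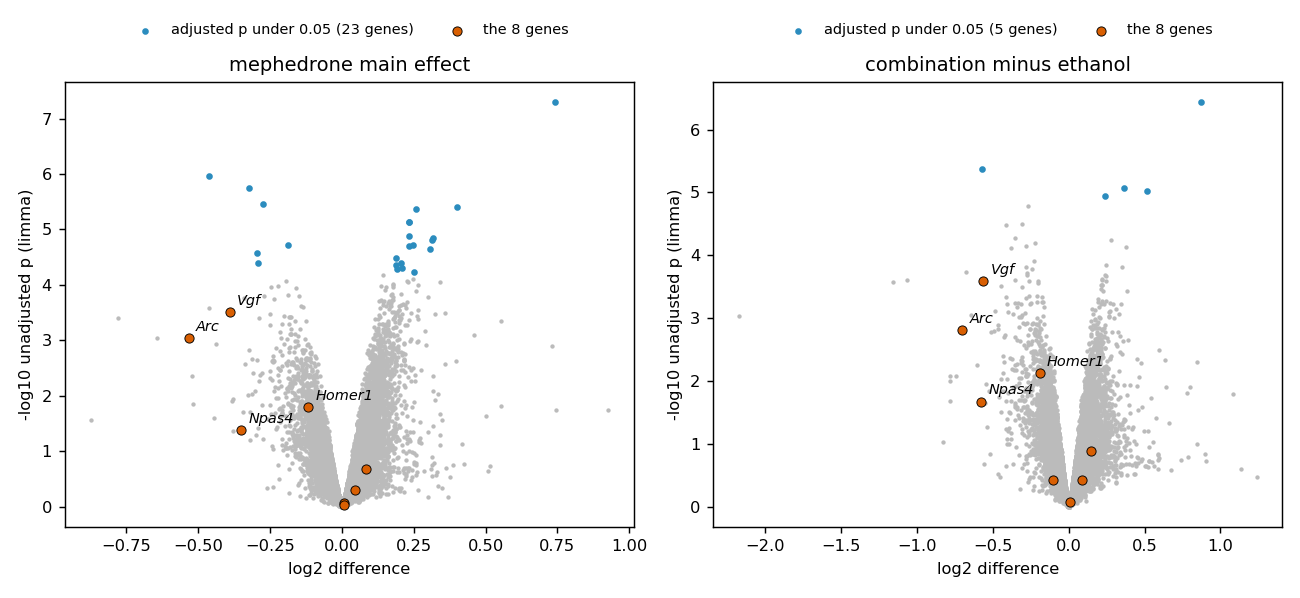
Each point is 1 of 19938 genes, with its log2 difference (x axis) and -log10 of its unadjusted limma p (y axis), for the mephedrone main effect and the combination minus ethanol. Blue points passed at an adjusted p of 0.05 (23 and 5 genes) and orange points are the 8 members. Vgf and Arc sit far to the left, at -0.39 and -0.53 in the mephedrone main effect, lower on the y axis than the genes that passed.

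Members differed widely in how much they varied at all. The SD over the 12 arrays was 0.46 for Npas4, 0.36 for Arc and 0.26 for Vgf, above that of 99.8%, 99.5% and 98.8% of genes. It was 0.14 for Scg2 (92.4%), 0.12 for Gadd45b (88.3%) and Nptx2 (88.0%), and 0.098 for Homer1 (78.3%).

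Across the 12 arrays Arc and Vgf had the highest correlation of the 28 pairs of members, with Pearson's r of 0.79 (permutation p = 0.0029, 0.0812 after Benjamini-Hochberg adjustment) and Spearman's rho of 0.59 (permutation p = 0.0497, adjusted 0.464). Without the 2 arrays farthest from the median of Arc r was 0.73, and of the deviations from the group means it was 0.35. Arc and Homer1 followed with r of 0.62 (permutation p = 0.0292, adjusted 0.342) and rho of 0.71 (permutation p = 0.0134, adjusted 0.377), 0.63 without the 2 farthest arrays and 0.099 for the deviations. No pair passed after adjustment. Both correlations were lower within groups than over all arrays.

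The mean levels of 3 marker lists (cortical, choroid plexus and striatal) were set against the 8 genes, and none of the 24 relations passed after adjustment. Homer1 had r of -0.70 with the cortical marker mean (permutation p = 0.0138, adjusted 0.125) and rho of -0.50 (permutation p = 0.104, adjusted 0.555). Without the 2 arrays farthest from the median, ethanol replicate 2 and combination replicate 3, r was -0.28. With all arrays it was -0.69 for the deviations from the group means. Bdnf had r of 0.68 (permutation p = 0.0161, adjusted 0.125) and rho of 0.65 (permutation p = 0.0265, adjusted 0.318), with 0.40 without those arrays. Gadd45b had r of -0.52 (permutation p = 0.0805, adjusted 0.248) and rho of -0.80 (permutation p = 0.00286, adjusted 0.0686), with r of -0.49 without them and -0.83 for the deviations from the group means. With the striatal marker mean Homer1 had r of 0.70 (permutation p = 0.0144, adjusted 0.125) and rho of 0.48 (permutation p = 0.116, adjusted 0.555). There r was 0.61 without the 2 arrays farthest on that axis and 0.81 for the deviations. With the choroid plexus mean Homer1 had r of -0.66 (permutation p = 0.0209, adjusted 0.125) and rho of -0.43 (permutation p = 0.162, adjusted 0.646). That r was -0.18 without the 2 arrays farthest on that axis and -0.69 for the deviations.

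**Figure D4:**
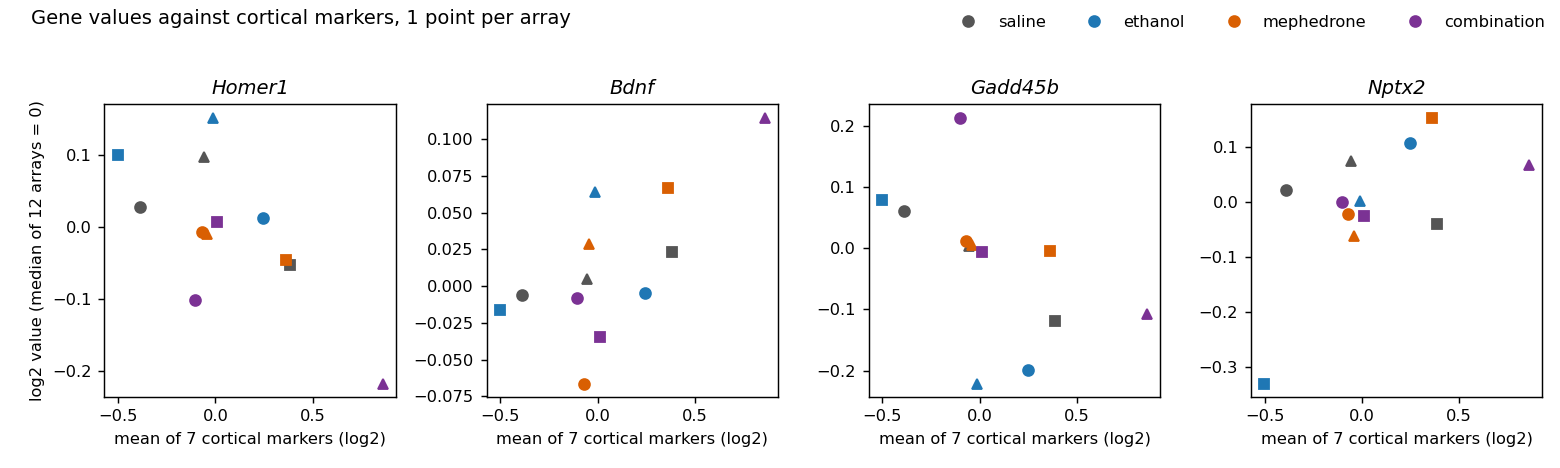
Log2 value of 4 members (y axis) against the mean of the 7 measured cortical excitatory neuron markers (x axis), 1 point per array, coloured by group, with the symbols of replicates 1 to 3 as circle, square and triangle, and y axes that differ between panels. Combination replicate 3, at 0.86 on the x axis, is the lowest array for Homer1 and the highest for Bdnf, and ethanol replicate 2, at -0.50, is the lowest for Nptx2.

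In the mephedrone main effect 7 of 7 cortical markers and 10 of 10 choroid plexus markers were above 0, with medians of 0.12 and 0.23, and none passed. Of other markers, 9 of 9 for microglia, 5 of 6 for endothelium and 6 of 8 for striatal projection neurons were below 0, against 46.8% of all genes. So were 3 of 7 for oligodendrocytes, 3 of 8 for hypothalamic and ventral forebrain neurons and 2 of 6 for astrocytes. Of these markers 1 passed, Cldn5 of the endothelial tight junction (-0.30, SE 0.044, adjusted p = 0.0333 in limma). The cortical and choroid plexus means were then used as covariates. With them the mephedrone main effect was -0.49 for Arc, -0.36 for Vgf, -0.29 for Npas4 and -0.092 for Homer1, against -0.53, -0.39, -0.35 and -0.12 without them. In the same fit Gadd45b was at 0.14 (SE 0.044, unadjusted p = 0.00937, adjusted p = 0.228) against 0.085, Scg2 at 0.049, Nptx2 at -0.0069 and Bdnf at -0.021, so that at an unadjusted p under 0.05, 3 members were lower (Arc, Vgf and Homer1) and 1 higher (Gadd45b). Without ethanol replicate 1 and combination replicate 3 it was -0.59 for Arc, -0.33 for Vgf, -0.16 for Npas4 and -0.11 for Homer1. Arc and Vgf were thus about as low in these fits, whereas the value of Npas4 was closer to 0 without those arrays. That of Homer1 was closer to 0 with the covariates. Its combination minus ethanol was -0.14 (SE 0.052) with the covariates, against -0.19 (SE 0.059) without them. The part of microglial or endothelial content in these values was not tested.

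Partners and relatives of the members gave 50 measured genes of 55 listed, and 0 of 50 passed in the mephedrone main effect in limma. At an unadjusted p under 0.05, 4 were higher, against 8.36% of all genes, and 6 lower, against 4.28%, and their median was 0.011 against 0.0038. Among Homer1 relatives and partners, 3 of 6 were below 0, with Shank3, a postsynaptic scaffold, at -0.14 (SE 0.054) and Homer3 at -0.058. Among Arc partners 2 of 4 were below 0, with Sh3gl3, an endophilin, at 0.077 and Dnm2, a dynamin, at -0.024. Of the Npas4 partners Arnt2 was at 0.086 and Arnt at -0.017.

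No receptor or secretory partner was among genes that passed. Ntrk2, the TrkB receptor of BDNF, was at -0.080 (SE 0.042) and Ngfr, the low-affinity neurotrophin receptor, at -0.079. Of 6 measured granins and processing enzymes 4 were above 0, with Cpe, the carboxypeptidase that trims peptide precursors, at 0.16 (SE 0.042) and Scg3 at 0.048. For Cpe the limma p was 0.00316 unadjusted and 0.139 adjusted, and the unadjusted p was smaller than that of Homer1 or Npas4. Nptx1 was at 0.31 (SE 0.24) and Gria4, an AMPA receptor subunit, at 0.071. Relatives of Gadd45b were at 0.10 for Gadd45g and 0.087 for Map3k4, a kinase that GADD45 proteins bind.

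Among the 8 regulators of activity-induced transcription, 4 were above and 4 below 0. Crtc1, the coactivator of CREB, was at -0.12 (SE 0.031, adjusted p = 0.128) and Srf, the factor of the serum response element, at -0.16 (SE 0.053, adjusted p = 0.226). In the combination minus ethanol the same genes were at -0.21 (SE 0.043, adjusted p = 0.184) and -0.21 (SE 0.075). Of 16 other activity-induced effector genes 9 had a mephedrone main effect above 0 and 7 below it, with Tiparp at -0.21 (SE 0.055, adjusted p = 0.135) and Plk2, a kinase that weakens synapses after strong activity, at 0.17 (SE 0.049, adjusted p = 0.152). At an unadjusted p under 0.05, 3 of the 16 were lower (Tiparp, Gpr3 and Sik1, the last 2 named after their values were seen) and 1, Plk2, was higher.

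In the combination minus ethanol 0 of the 50 relatives passed in limma either, with 3 higher, against 5.31% of all genes, and 8 lower, against 4.41%, at an unadjusted p under 0.05. Of the 8 lower genes 5 were among the 16 other effector genes: Tiparp, Gpr3 (-0.43, SE 0.12), Rgs2 (-0.39, SE 0.16), Sik1 (-0.24, SE 0.080) and Inhba (-0.19, SE 0.065), of which all but Tiparp were named after their values were seen. The median of these 16 was -0.049, against -0.00067 over all genes. Tiparp was at -0.33 (SE 0.078, adjusted p = 0.240), Plat, the tissue plasminogen activator, at 0.20 (SE 0.055, adjusted p = 0.290), Shank3 at -0.17 and Cpe at 0.16. The other genes named by the rule there were Shank1 (0.25, SE 0.19), Sort1 (0.12), Ntrk2 (-0.086), Chgb (-0.12), Nptx1 (0.48, SE 0.33), Gria4 (0.10), Map3k4 (0.075), Gadd45g (0.097), Sh3gl3 (0.072), Sh3gl1 (0.017), Arnt2 (0.12) and Arnt (-0.035).

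The genes whose pattern over the 12 arrays was most like each member, by Pearson's r among 17035 genes, are given as a description. They were Peli3 (0.95), Dusp1 (0.94) and Pdp1 (0.93) for Arc, Bcl2 (0.94), Cacnb1 (0.93) and Kitl (0.93) for Vgf, and Rps6ka3 (0.94), Usp28 (0.92) and Dmp1 (0.90) for Homer1. For Npas4 they were Rps2 (0.92), Rybp (0.91) and Mgat4b (0.90), of which Rps2 has near-identical copies. For Scg2 they were Pam (0.95), Spry3 (0.93) and Dzank1 (0.93), and for Bdnf Nxph3 (0.94), Rtn4rl2 (0.89) and Cabp1 (0.89). Nptx2 was most like Hspbap1 (0.92), Six4 (0.87) and Golga5 (0.84), and Gadd45b most like C8g (0.87), Ttc32 (0.86) and Pex10 (0.86). No gene was among the nearest 3 of more than 1 member, and with 12 arrays and so many genes high values arise for any gene.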

How the data were processed

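RNA abundance was measured on 12 arrays. The authors deposited log2 values for 28853 probe sets; the submitters' processing notes name RMA and the build mm8, and GeneSpring GX 7.3.1 is the software given in the series' design text. That each probe set was centred on its median was read from the values (largest absolute median 7e-07). Level ranges come from steps of 1 over 2 to the power 20 or 21, with a tolerance of 0.06 step. Probe sets with 1 symbol in the platform annotation were averaged per gene, and there were 0 missing values. Group means were fitted in limma 3.58.1 (R 4.3.3) over all 12 arrays, with 8 residual and 3.43 prior degrees of freedom, and Benjamini-Hochberg adjustment over 19938 genes. The fit was tested on simulated data. A gene was put between 8 and 16 when at least 1 of its probe sets was. Errors beside differences are standard errors. Correlations used 100000 resamples. For arrays, their number limits the precision. Members, lists and alternatives were chosen with earlier results of these data known. Named relatives are, per list, those that passed or else the 2 with the smallest p in the mephedrone main effect and in the combination minus ethanol. The alternatives were each probe set alone, a replicate block, leaving out arrays, array weights, quantile normalisation, fewer arrays, bright probe sets and marker covariates. Replicate numbers were not used as pairs in the main fit. Deviations from group means correlated between -0.28 and 0.43 over 18 same-numbered pairs, above 0.1 in 7, and between -0.43 and 0.40 over different-numbered pairs. With a replicate block the SE of Vgf in the mephedrone main effect was 0.055, against 0.076 without it. Whether replicate numbers mark a batch was not tested.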

Additional observations from a re-analysis of the deposited data

How the results depend on the processing

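Leaving out 1 array moved the count of genes passing to between 2 and 86 in the mephedrone main effect (23 with all arrays), 0 and 19 in the combination minus ethanol (5), 0 and 6 in the combination minus saline (2), 0 and 6 in the F test (1), 0 and 11 in mephedrone minus ethanol (0), and 0 and 1 in each single drug minus saline (0). The extremes of the main effect were without saline replicate 1 (2) and ethanol replicate 1 (86). Members passing moved from 0 to between 0 and 1 in the combination minus ethanol.

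In the order mephedrone main effect, combination minus saline, combination minus ethanol, the counts were 68, 1 and 10 with each probe set on its own, 6, 1 and 1 with a replicate block, 213, 4 and 1 when ethanol replicate 1 and combination replicate 3 were dropped, 356, 6 and 37 with array weights, 10, 0 and 0 with quantile normalisation, 35, 4 and 3 with bright probe sets, and 14, 0 and 0 with marker covariates. With only the arrays compared they were 0 and 1 for the last 2. The F test gave 2 without both arrays, 13 with weights, 0 with quantile normalisation, 3 with bright probe sets and 2 with covariates. Mephedrone minus ethanol gave 11 with weights and 1 with covariates, and mephedrone minus saline 2 with weights and 1 with bright probe sets. Members passed in 1 of these settings, array weights (2, Arc and Vgf). The replicate block changed no call of a member (Vgf -0.39, adjusted p = 0.0673). The cause of these shifts was not tested.

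Signs changed in values near 0, and in Npas4 in mephedrone minus ethanol, which was 0.24 (SE 0.22) with all arrays. Bdnf in the mephedrone main effect was -0.021 without both arrays, -0.012 with weights, -0.0062 with quantile normalisation and -0.021 with covariates, and ranged from -0.017 to 0.025 without 1 array. Nptx2 there was -0.0069 with covariates and ranged from -0.018 to 0.091, and Scg2 was 0.10 without both arrays and ranged from -0.035 to 0.078 without 1 array. Homer1 in the ethanol main effect was 0.038 without both arrays, 0.024 with weights and 0.0084 with covariates, and ranged from -0.037 to 0.019. Arc there ranged from -0.072 to 0.14 without 1 array. Npas4 ranged likewise from -0.24 to 0.022 in mephedrone minus saline and -0.012 to 0.48 in mephedrone minus ethanol. In the latter Npas4 was 0.48 without both arrays (limma unadjusted p = 0.0143, adjusted p = 0.332). With weights it was 0.50 (unadjusted p = 0.0135, adjusted p = 0.275). In both settings Arc, Vgf and Homer1 were below 0 in that comparison, at an unadjusted p under 0.05. In the mephedrone main effect Arc ranged from -0.66 to -0.42 and Vgf from -0.44 to -0.32 over all settings. Signal over background could not be read from the centred table.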
